A study of Mus musculus with 20 samples.

Results

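The 41 genes described here mark Kupffer cells, other leukocytes and what these cells express for antigen presentation and inflammatory signalling in the mouse liver. They were taken from a list of gene symbols, which matched 41 of the 55573 gene IDs in the count files. They form 8 groups by role: 13 genes of resident macrophages, 7 of monocytes and leukocytes in general, 5 of T and natural killer (NK) cells, 3 of B cells, 4 of antigen presentation, 3 of lipid-associated macrophages, 4 cytokines and chemokines and 2 Toll-like receptors. In all, 28 of the 41 passed the filter on low counts and were tested, and 13 had too few reads.

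Whole-liver RNA was sequenced from 20 male mice in 4 groups of 5. Titan mice are a line bred over many generations for high body mass, and the controls are an unselected line of the same founder population. Each line was studied at 11 weeks and at 19–21 weeks of age, here also called the older mice, and all mice ate the standard breeding diet. Neither line is inbred, and reads were mapped to the genome of another strain, so sequence differences between the lines may change how many reads map to a gene, which was not tested. Nothing in the samples' descriptions or the study's methods ties the replicate numbers to litters, days or pools.

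Kupffer cells are the macrophages that line the sinusoids of the liver, where they take up bacteria, dying cells and old red blood cells from portal blood. In mice they are recognized by CLEC4F, TIM4 (encoded by *Timd4*) and VSIG4, while monocytes that enter from blood carry CCR2 and LY6C. In fatty liver, part of the resident cells can be replaced by monocyte-derived macrophages that express *Trem2*, *Gpnmb* and *Spp1*. Antigen-presenting cells show peptides to CD4 T cells on MHC class II, a dimer of an α and a β chain. Mice have the I-A dimer, built from *H2-Aa* and *H2-Ab1*, and, depending on haplotype, the I-E dimer, built from *H2-Ea* and *H2-Eb1*.

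Reads on genes ranged from 6794935 to 23295028 per mouse, with a median of 12547300. Levels are counts per 1000000 reads on genes (CPM), with library sizes scaled by the TMM method, and 3 reads corresponded to 0.126 to 0.408 CPM. Fold changes are log2 values with their standard error (SE), and p values are those of edgeR's quasi-likelihood test, adjusted over all 13783 genes tested, at a threshold of 0.05. Summed levels of 12 hepatocyte genes lay between 99613 and 141647 CPM in every mouse. In bulk tissue, fewer cells of a type and less RNA per cell cannot be told apart.

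The promoters of 4 of the genes whose levels differed between the lines are printed here, and those of *H2-Aa* and *H2-Eb1* are compared further on. RefSeq sequences (build GRCm38.p6) from 220 to 21 bases before the annotated start, written along the gene's own strand, were available for 29 of the 41 genes. They were searched on both strands for GAGGAA, the core bound by the myeloid factor PU.1 (encoded by *Spi1*), and for CTGATTGG, the Y-box letters of MHC class II promoters. The second search was chosen after values had been seen. GAGGAA or its reverse complement TTCCTC occurred in 18.8% of 32851 promoters and in 14 of the 29 (48.3%), and CTGATTGG or its reverse complement CCAATCAG in 3.37% of promoters and in 3 of the 29 (*H2-Aa*, *H2-Eb1* and *Spp1*). A match is a description of letters and not a binding site. *Clec4f* and *Timd4* held neither run, and *Cd4* and *H2-Ab1* were not in the promoter table. Capitals mark the matched letters, which begin 108 bases before the start in *Ly6c2*, 100 in *Cd3e*, 51 in *H2-Aa* and 62 in *H2-Eb1*. The regions are chr15:75111992-75112191 (minus strand) for *Ly6c2*, chr9:45009632-45009831 (minus strand) for *Cd3e*, chr17:34287844-34288043 (minus strand) for *H2-Aa* and chr17:34305647-34305846 (plus strand) for *H2-Eb1*.
*Ly6c2*: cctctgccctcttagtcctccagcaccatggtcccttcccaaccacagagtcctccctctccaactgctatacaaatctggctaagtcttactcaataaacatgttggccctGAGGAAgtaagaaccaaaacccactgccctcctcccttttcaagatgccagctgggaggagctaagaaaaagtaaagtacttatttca
*Cd3e*: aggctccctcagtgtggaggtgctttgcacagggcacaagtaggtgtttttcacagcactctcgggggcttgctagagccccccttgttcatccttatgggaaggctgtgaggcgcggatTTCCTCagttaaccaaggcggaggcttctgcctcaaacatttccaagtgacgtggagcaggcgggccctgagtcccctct
*H2-Aa*: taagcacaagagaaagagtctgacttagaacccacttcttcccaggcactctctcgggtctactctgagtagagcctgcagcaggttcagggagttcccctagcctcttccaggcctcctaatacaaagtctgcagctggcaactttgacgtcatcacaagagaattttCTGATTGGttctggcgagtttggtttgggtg
*H2-Eb1*: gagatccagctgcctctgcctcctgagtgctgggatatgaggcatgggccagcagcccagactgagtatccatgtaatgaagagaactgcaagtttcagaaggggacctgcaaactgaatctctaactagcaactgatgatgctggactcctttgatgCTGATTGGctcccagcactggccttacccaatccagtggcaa

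Between the lines, the markers of resident macrophages did not pass the test at either age. Single genes of monocytes, T cells and antigen presentation passed, and whether the groups of genes differ in this was not tested. At 11 weeks, 5 of the 28 tested genes (17.9%) passed, against 14.9% of all genes tested. *Ly6c2*, *Cd3e* and *H2-Aa* were upregulated in Titan mice, and *Cd4* and *H2-Eb1* were downregulated. At 19–21 weeks, 3 of 28 (10.7%) passed, against 9.12% of all genes tested: *Cd3e* and *H2-Aa* were upregulated and *H2-Eb1* was downregulated. The shares at both ages are near the background. The median log2 difference over the 28 genes was 0.16 at 11 weeks and 0.19 at 19–21 weeks, beside -0.02 and 0.01 over all genes tested.

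**Figure D1:**
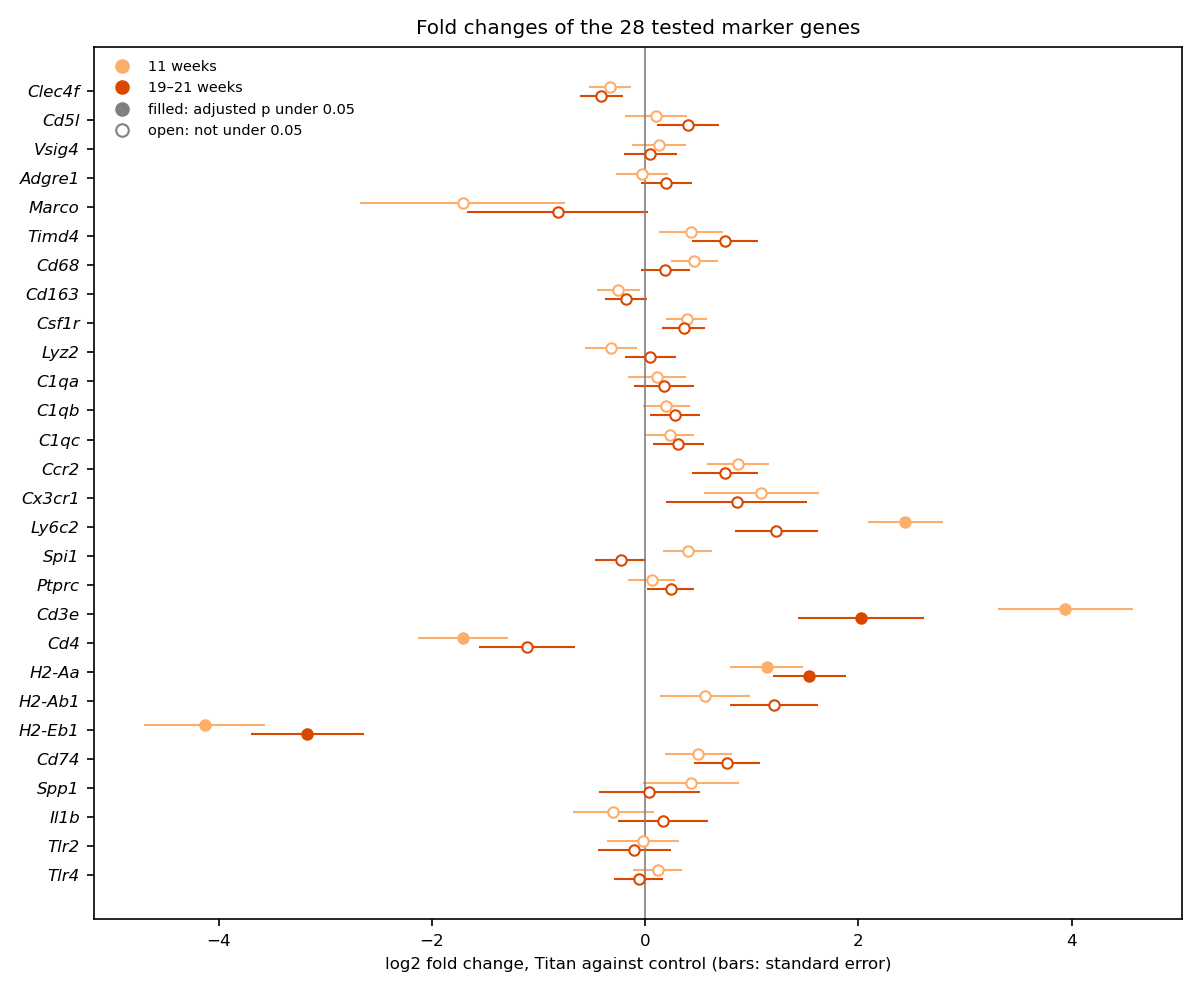
Log2 fold change of Titan against control for the 28 tested marker genes (horizontal axis) at 11 weeks and at 19–21 weeks. Bars are standard errors and filled points have an adjusted p under 0.05. *Cd3e* lies farthest to the right (3.94 at 11 weeks), *H2-Eb1* farthest to the left (-4.13), and none of the 13 resident macrophage genes from *Clec4f* to *C1qc* is filled.

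*Cd5l*, which encodes a scavenger protein secreted by macrophages, and *Clec4f*, the C-type lectin specific to Kupffer cells, had the highest levels per length, at 22.5 ± 8.19 and 19.8 ± 5.03 CPM per kb of exon (mean ± SD, n = 20 mice). The lysozyme gene *Lyz2* followed among macrophage genes with 17.3 ± 5.2 CPM per kb. The complement genes *C1qb* and *C1qa* had 15.4 ± 3.94 and 13.6 ± 4.42, *Vsig4*, a complement receptor, 10.5 ± 3.12, *C1qc* 7.32 ± 2.15 and *Csf1r*, the receptor for the growth factor CSF1, 7.16 ± 1.81. Neighbours from *Cd5l* down to *Vsig4* differed by less than their SD, as did *C1qc* and *Csf1r*. *Adgre1* (the F4/80 antigen), *Cd68*, *Cd163* (the hemoglobin scavenger receptor) and *Timd4* lay between 4.12 and 2.49 CPM per kb, and *Marco*, another scavenger receptor, was lowest of the 13 at 0.767. All 13 resident macrophage genes had reads in each of the 20 mice, so the defining Kupffer cell markers were present in every library.

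*Clec4f* lies at chr6:83644542-83656187 (GRCm38, minus strand). Its level in 11-week controls was 47.5, 52.1, 49.6, 68 and 56.1 CPM (replicates 1 to 5, here and in what follows), and in 11-week Titan mice 37.4, 40.2, 43.2, 48.1 and 48.1 CPM. At the later age it was 35.3, 43.3, 69.2, 55.1 and 75.3 CPM in controls and 59.1, 43.4, 22.7, 43.8 and 41.5 CPM in Titan mice. At both ages the lines overlapped. The log2 difference was -0.33 ± 0.20 SE at 11 weeks (adjusted p = 0.302) and -0.41 ± 0.20 SE at 19–21 weeks (adjusted p = 0.227).

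*Timd4*, the receptor for phosphatidylserine on dying cells that marks long-lived Kupffer cells, leaned the other way. It had 3.54, 4.33, 4.31, 4.51 and 6.07 CPM in 11-week controls and 4.82, 5.16, 6.93, 7.84 and 6.05 CPM in 11-week Titan mice. In the older groups it had 1.37, 2.89, 4.69, 5.4 and 6.04 CPM in controls and 9.92, 8.01, 2.92, 7.17 and 6.2 CPM in Titan mice. The groups overlapped at each age, and the differences of 0.43 ± 0.30 SE and 0.75 ± 0.31 SE did not pass the test (adjusted p = 0.382 and 0.136).

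The other resident genes did not pass the test either. *Csf1r* had 35.1 ± 6.98 CPM in controls and 46.1 ± 8.33 CPM in Titan mice at 11 weeks (mean ± SD, n = 5), and 36.8 ± 9.59 and 47.4 ± 12.8 CPM at 19–21 weeks, with adjusted p of 0.2 and 0.265. *Vsig4* had 14.5 ± 2.23 and 15.9 ± 2.93 CPM, then 15.6 ± 4.56 and 16.3 ± 8.1 CPM. *Adgre1* had 12.6 ± 1.99 and 12.4 ± 2.43 CPM, then 13.2 ± 4.49 and 15.2 ± 5.78 CPM. For both genes every difference was smaller than the SD within a group. *C1qa* had 13.1 ± 2.27 and 14.1 ± 1.97 CPM at 11 weeks and 13.8 ± 5.63 and 15.8 ± 7.38 CPM at 19–21 weeks, with log2 differences of 0.11 and 0.18. Its partners *C1qb* and *C1qc* had log2 differences of 0.20 to 0.31.

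Over the 13 resident macrophage genes, 8 had a positive and 5 a negative log2 difference at 11 weeks, with a median of 0.11 and a smallest adjusted p of 0.184. At 19–21 weeks, 10 were positive and 3 negative, with a median of 0.19 and a smallest adjusted p of 0.136. edgeR called 0 of the 13 at either age, beside 14.9% of all genes tested at 11 weeks and 9.12% at 19–21 weeks. DESeq2 also called 0 of the 13, and 0 of them at 11 weeks and 1 at 19–21 weeks (*Timd4*) had an unadjusted p under 0.05. The widest log2 difference, -1.71 ± 0.96 SE for *Marco* at 11 weeks (adjusted p = 0.266), came with the widest spread, as its level ranged from 0.167 to 2.8 CPM within the controls of that age. Summed over the 13 genes, the level was 251 ± 33.7 CPM in 11-week controls (230 to 310), 255 ± 37.2 CPM in 11-week Titan mice (215 to 306), 256 ± 79.8 CPM in 19–21-week controls (156 to 337) and 279 ± 99.2 CPM in 19–21-week Titan mice (155 to 428).

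**Figure D2:**
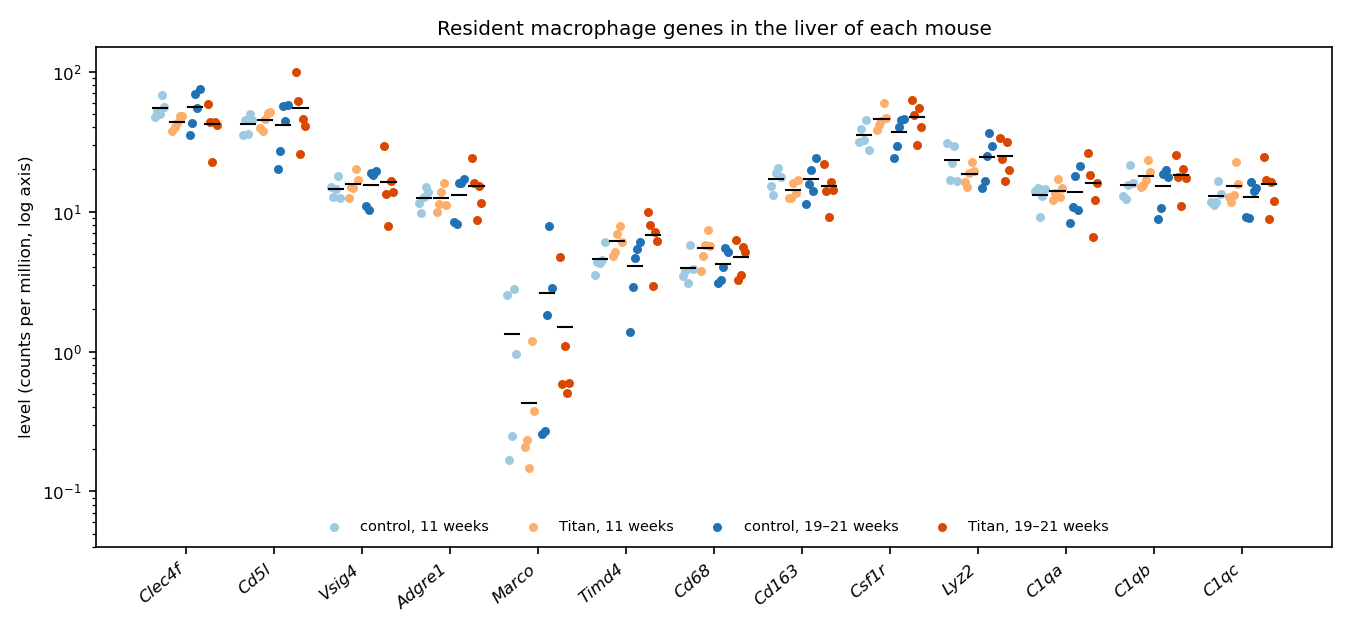
Level of the 13 resident macrophage genes in each of the 20 mice, in CPM on a log axis, with 1 point a mouse, 1 colour a group and a black line at each group mean. The groups overlap for all 13 genes, *Cd5l*, *Clec4f* and *Csf1r* are highest, and the coefficient of variation is larger at 19–21 weeks for 13 of 13 genes in each line, by little for *Cd68*.

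What differed between the groups by description was the spread. The coefficient of variation was larger at 19–21 weeks than at 11 weeks for 13 of the 13 genes in controls, with a median of 33% against 17.3%, and for 13 of 13 in Titan mice, with 37.8% against 18.5%. The genes moved together from mouse to mouse. Replicate 1 of the 19–21-week Titan mice was the highest of its group for 13 of 13 genes (sum 428 CPM), and replicate 3 was the lowest for 11 (155 CPM). Among 19–21-week controls, replicates 1 and 2 (156 and 187 CPM) lay under the other 3 mice for 11 of the 13 genes. Replicate 4 was the highest for 10 of 13 genes in 11-week controls and for 9 of 13 in 11-week Titan mice.

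Other measures varied along with these sums. Among 19–21-week Titan mice, replicate 1 also had the highest sum of 23 other pan-myeloid genes (264 CPM) and replicate 3 the lowest (170 CPM). The sum of 18 other Kupffer cell genes, much of it *C6* and *Slc40a1*, did not follow this order, with replicate 4 highest (1152 CPM) and replicate 5 lowest (1046 CPM). Its coefficient of variation was 6.6% and 6.21% in controls and 3.73% and 3.6% in Titan mice at 11 and at 19–21 weeks, so it was not larger at the later age. Replicate 1 was also the least deeply sequenced of the 20 mice (6794935 reads). Replicate 3 had the largest share of reads outside annotated genes (30.96%), followed by replicate 4 of the 19–21-week controls (30.53%). Replicate 4 of the 11-week controls, with the highest sum of its group, had 28.17%. The older groups were also less deeply sequenced. Median reads on genes were 14283662 at 11 weeks and 11218712 at 19–21 weeks in controls, and 13971374 and 9524930 in Titan mice. The older groups also span 19 to 21 weeks of age. The part of depth, of reads outside genes and of this range of ages in the macrophage levels and their spread was not tested.

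Another 18 Kupffer cell genes, with 17 tested, gave 2 past the threshold at 11 weeks (11.8%, against 14.9% of all genes tested). The iron exporter gene *Slc40a1* was upregulated (0.65 ± 0.15 SE, adjusted p = 0.00463) and the complement gene *C6* was downregulated (-0.90 ± 0.18 SE, adjusted p = 0.00162). These genes had 249 and 481 CPM in the 11-week controls, above the 54.7 CPM of *Clec4f*, and both are also made by cells other than macrophages. At the later age edgeR called 0 of the 17, beside 9.12% of all genes tested, DESeq2 called 1, and 2 had an unadjusted p under 0.05.

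Of the 7 genes of monocytes and leukocytes in general, 5 were tested. *Ptprc*, which encodes CD45 and marks all leukocytes, had 14.3 ± 1.26 CPM in 11-week controls, 14.9 ± 3.59 CPM in 11-week Titan mice, 15.8 ± 4.58 CPM in 19–21-week controls and 18.6 ± 6.63 CPM in 19–21-week Titan mice. Its log2 difference between the lines was 0.06 ± 0.22 SE (adjusted p = 0.907) and 0.24 ± 0.22 SE (adjusted p = 0.541). *Spi1*, which encodes PU.1, had group means between 1.64 and 2.2 CPM and did not pass the test either (adjusted p = 0.286 and 0.609).

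*Ly6c2*, one of the genes for the LY6C antigen of inflammatory monocytes, was the member of this group that passed. It lies at chr15:75108158-75111970 (minus strand). Its level in 11-week controls was 0.169, 0.167, 0.248, 0.366 and 0.138 CPM, from 2, 2, 5, 6 and 2 reads, and in 11-week Titan mice 1.24, 0.703, 1.24, 1.59 and 1.51 CPM, from 18, 9, 17, 16 and 36 reads. All 5 Titan mice were above all 5 controls. The level was 5.43-fold higher in Titan mice (log2 2.44 ± 0.35 SE, adjusted p = 6.71e-05). In the older groups the controls had 0.257, 0.0903, 0.324, 0.132 and 0.503 CPM and the Titan mice 0.272, 0.782, 0.729, 0.759 and 0.68 CPM. Here 4 of the 5 Titan mice were above all controls, replicate 1 was not, and the difference of 1.23 ± 0.39 SE missed the threshold (adjusted p = 0.0554).

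*Ly6c2* shares a cluster on chromosome 15 with close relatives, and reads that map to more than 1 place were not counted. Within 150 kb, 3 of 4 other tested genes passed the threshold at each age, beside 14.9% and 9.12% of all genes tested. The paralog *Ly6c1*, 59.3 kb away and not a member, had 0.118 ± 0.0427 CPM in 11-week controls and 1.54 ± 0.552 CPM in 11-week Titan mice (adjusted p = 2.82e-05), and 0.149 ± 0.076 and 2.24 ± 1.49 CPM at 19–21 weeks (adjusted p = 3.55e-05). *Ly6e*, 148 kb away, was also upregulated, by 1.66 ± 0.19 SE (adjusted p = 7.03e-06) and 0.92 ± 0.19 SE (adjusted p = 0.00366). How reads divide between *Ly6c2* and *Ly6c1* in these lines was not tested.

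*Ccr2*, the chemokine receptor that lets monocytes leave the bone marrow, had 1.01, 1.58, 1.63, 1.71 and 1.03 CPM in 11-week controls and 1.03, 2.74, 2.12, 4.17 and 2.94 CPM in 11-week Titan mice. Among older mice it had 0.943, 1.08, 1.62, 2.5 and 1.59 CPM in controls and 2.99, 2.15, 2.19, 3.04 and 2.46 CPM in Titan mice. At 11 weeks 4 of 5 Titan mice were above all controls, with replicate 1 within their range. The difference of 0.87 ± 0.29 SE lay at the threshold (adjusted p = 0.0509), and with 1 mouse left out it ranged from 0.66 without Titan replicate 4 (adjusted p = 0.141) to 1.07 without Titan replicate 1 (adjusted p = 0.00804). At the later age it was 0.75 ± 0.31 SE (adjusted p = 0.132).

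*Cx3cr1*, the fractalkine receptor of patrolling monocytes, differed by 1.09 ± 0.54 SE at 11 weeks (adjusted p = 0.194), and its values turned on single mice. Replicate 4 of the 11-week controls had 2.13 CPM beside 0.337 to 0.75 CPM in the other 4, and without it the difference was 1.83 (adjusted p = 0.0326). Titan replicate 5 of that age had 4.29 CPM beside 0.482 to 1.61 CPM in the other 4, and without it the difference was 0.35 (adjusted p = 0.739). The integrin genes *Itgam* and *Itgax*, which encode CD11b and CD11c, had 1 to 9 and 1 to 10 reads per mouse and were not tested. Of the exon sequence of *Itgam*, 68.7% also belongs to the annotated gene *Gm49368* on the same strand, and reads on both are not counted, so its level is uncertain.

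Genes of T cells were close to the limit of detection. *Cd3g*, *Cd8a* and *Nkg7*, the last a granule gene of NK and cytotoxic T cells, had at most 6, 5 and 4 reads per mouse, and no read in 3, 8 and 3 of the 20 mice. They were not tested. *Cd3e* and *Cd4* passed the filter, and they went in opposite directions at 11 weeks.

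*Cd3e*, which encodes the ε chain of the CD3 complex, lies at chr9:44998740-45009627 (minus strand). In 11-week controls it had 0.169, 0.0833, 0.099, 0.061 and 0.414 CPM, from 2, 1, 2, 1 and 6 reads, and in 11-week Titan mice 2.83, 3.91, 2.12, 1.79 and 2.44 CPM, from 41, 50, 29, 18 and 58 reads. The groups did not overlap, and the level was 15.4-fold higher in Titan mice (log2 3.94 ± 0.63 SE, adjusted p = 0.000224). In the older groups the controls had 0, 0.0903, 0.324, 2.24 and 0.252 CPM and the Titan mice 1.9, 2.64, 1.94, 1.6 and 1.78 CPM. The Titan mice lay close together and above 4 of the controls, while control replicate 4, with 17 reads, was within their range. The difference was 2.02 ± 0.59 SE (adjusted p = 0.0348), and without this control it was 3.36 (adjusted p = 0.000221). With any 1 of the other 9 mice left out it no longer passed, with an adjusted p of up to 0.087.

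The other components of the T cell receptor did not follow *Cd3e*. Summed over 5 mice, *Cd3e* had 12 reads in 11-week controls, 196 in 11-week Titan mice, 27 in 19–21-week controls and 97 in 19–21-week Titan mice. In the same order *Cd3d*, the δ chain, had 11, 9, 13 and 8 reads, *Cd3g*, the γ chain, 7, 12, 9 and 13, and *Cd247*, the ζ chain, 6, 6, 7 and 0. The receptor constant regions *Trac*, *Trbc1* and *Trbc2* had 10, 18, 16 and 10, then 8, 8, 6 and 6, then 15, 15, 17 and 9 reads. *Cd3e* thus had more reads in the Titan mice than *Cd3d* and *Cd3g* together at both ages, where the controls had similar low numbers of all 3 at 11 weeks. None of these other genes passed the filter, so their differences were not tested. Of 7 other tested genes within 150 kb of *Cd3e*, 1 passed at each age, beside 14.9% and 9.12% of all genes tested. It was the sodium channel subunit gene *Scn4b*, 129 kb away (adjusted p = 0.000155 and 0.0128, higher in Titan mice). *Gm48719* is annotated on the strand opposite to *Cd3e*.

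*Cd4*, the coreceptor of helper T cells that is also found on some macrophages and dendritic cells, lies at chr6:124864692-124888221 (minus strand). It had 3.04, 0.916, 1.14, 4.45 and 2.48 CPM in 11-week controls and 0.62, 0.313, 1.17, 0.894 and 0.672 CPM in 11-week Titan mice. The groups overlapped, as 2 of the controls lay under the highest Titan mouse. It was downregulated by 1.71 on the log2 scale (-1.71 ± 0.42 SE, adjusted p = 0.0075). Among older mice it had 2.06, 1.99, 1.4, 1.19 and 2.18 CPM in controls and 1.77, 0.586, 0.851, 0.337 and 0.765 CPM in Titan mice, a difference of -1.11 ± 0.45 SE that did not pass (adjusted p = 0.134). Of 15 other tested genes within 150 kb of *Cd4*, 1 passed at each age. Among 23 other T and NK cell genes only 3 could be tested, and edgeR called 0 at either age, as did DESeq2, with 1 gene at 11 weeks and 0 at 19–21 weeks at an unadjusted p under 0.05.

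**Figure D3:**
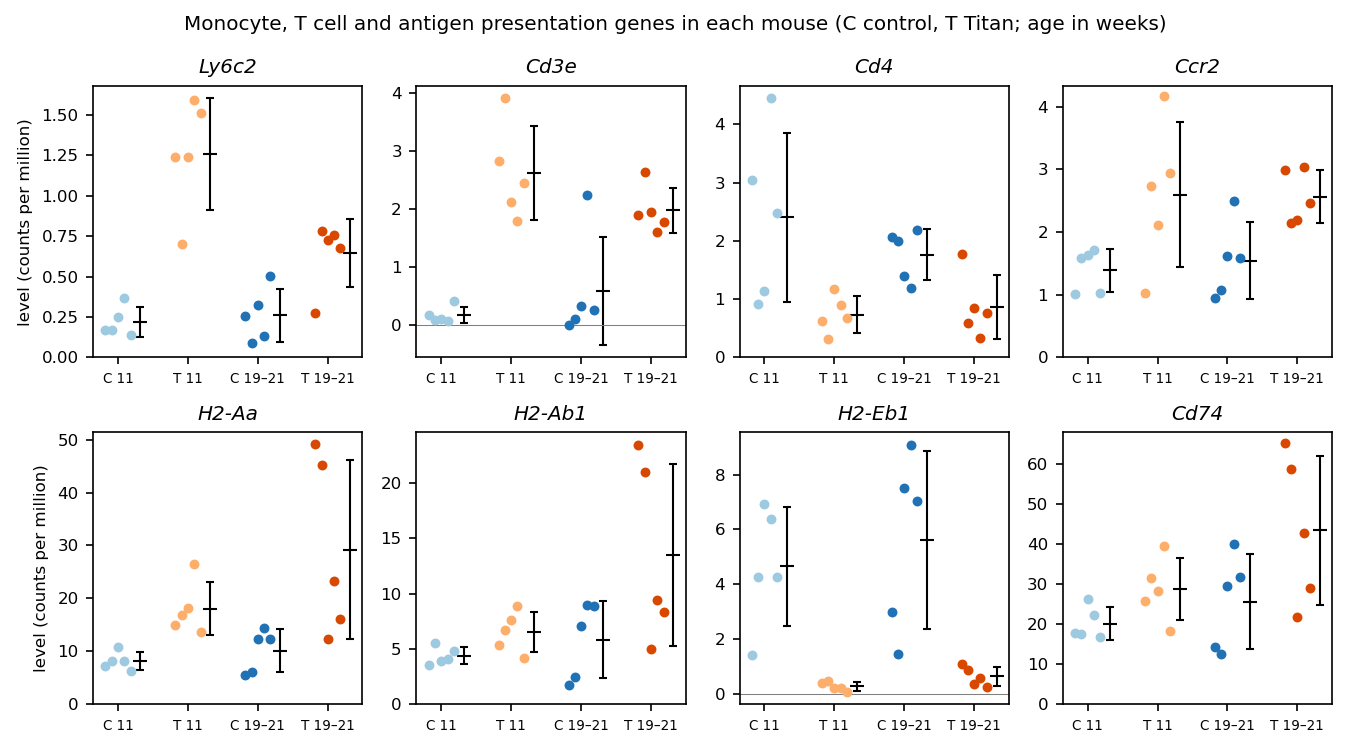
Level of 8 genes of monocytes, T cells and antigen presentation in each mouse (vertical axis, CPM), with 1 point a mouse in replicate order from left to right and the mean ± SD of the 5 mice in black. *Ly6c2* and *Cd3e* separate the 11-week lines, *H2-Eb1* separates the lines at both ages in the other direction, and *Cd3e* in 19–21-week controls is near 0 except for 1 mouse at 2.24.

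The B cell genes *Cd79a* and *Cd79b*, which encode the signalling chains of the B cell receptor, and *Ms4a1*, which encodes CD20, had 0 to 7, 1 to 22 and 0 to 13 reads per mouse and were not tested. Summed, they gave 1.27 ± 0.272 CPM in 11-week controls, 0.841 ± 0.43 CPM in 11-week Titan mice, 1.38 ± 0.519 CPM in 19–21-week controls and 1.39 ± 1.07 CPM in 19–21-week Titan mice. These ranges overlapped. Of 14 other B cell genes, 8 were tested. They held 1 past the threshold at 11 weeks (12.5%) and 2 at 19–21 weeks (25%), beside 14.9% and 9.12% of all genes tested. *Ighm*, the IgM heavy chain, was downregulated at 19–21 weeks (-2.45 ± 0.56 SE, adjusted p = 0.00839), from 21.8 ± 21.5 CPM in controls to 3.91 ± 1.49 CPM in Titan mice. *Ly6d*, a relative of *Ly6c2* on the same chromosome that is used as a marker of early B cells, rose from 0.231 ± 0.152 to 29.7 ± 20.7 CPM at 11 weeks (adjusted p = 7.53e-06) and from 0.162 ± 0.133 to 3.42 ± 3.08 CPM at 19–21 weeks (adjusted p = 0.0114).

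The genes of antigen presentation lie together on chromosome 17, with the exception of *Cd74*, and they held both directions. *H2-Aa*, the α chain of I-A, lies at chr17:34282744-34287823 (minus strand). In 11-week controls it had 7.09, 8.08, 10.8, 8.05 and 6.28 CPM, and in 11-week Titan mice 14.9, 16.8, 18.2, 26.4 and 13.7 CPM. The groups did not overlap, and the level was 2.2-fold higher in Titan mice (log2 1.14 ± 0.34 SE, adjusted p = 0.0258). With control replicate 1, control replicate 5 or Titan replicate 4 left out it no longer passed, with an adjusted p of up to 0.069. At the later age *H2-Aa* had 5.49, 5.96, 12.2, 14.4 and 12.2 CPM in controls and 49.2, 45.2, 12.3, 23.2 and 16 CPM in Titan mice, 2.9-fold higher (1.54 ± 0.34 SE, adjusted p = 0.00686). At this age 4 of 5 Titan mice were above all controls, and replicates 1 and 2 stood far above the other 3.

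*H2-Ab1*, the β chain that pairs with *H2-Aa*, had 4.37 ± 0.784 CPM in 11-week controls and 6.52 ± 1.84 CPM in 11-week Titan mice (0.56 ± 0.42 SE, adjusted p = 0.416). In the older groups it had 1.72, 2.44, 7.07, 8.96 and 8.89 CPM in controls and 23.5, 21, 4.98, 9.45 and 8.33 CPM in Titan mice, with the same 2 Titan mice highest. The difference of 1.21 ± 0.41 SE missed the threshold (adjusted p = 0.0701), while DESeq2 gave an adjusted p of 0.0347. *Cd74*, the invariant chain that fills the groove of new class II dimers, had 20.1 ± 4.07 and 28.6 ± 7.73 CPM at 11 weeks (0.50 ± 0.31 SE, adjusted p = 0.318) and 25.6 ± 11.8 and 43.4 ± 18.7 CPM at 19–21 weeks (0.77 ± 0.31 SE, adjusted p = 0.126).

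*H2-Eb1*, the β chain of I-E, lies 18 kb from *H2-Aa* at chr17:34305867-34316674 (plus strand) and was the only member of the group downregulated. It had 1.43, 4.25, 6.93, 6.4 and 4.28 CPM in 11-week controls and 0.413, 0.469, 0.219, 0.199 and 0.084 CPM in 11-week Titan mice, from 6, 6, 3, 2 and 2 reads. It was 17.5-fold lower in Titan mice (log2 -4.13 ± 0.57 SE, adjusted p = 4.49e-05). Among older mice it had 3, 1.44, 7.5, 9.09 and 7.05 CPM in controls and 1.09, 0.879, 0.365, 0.59 and 0.255 CPM in Titan mice, 8.97-fold lower (-3.17 ± 0.53 SE, adjusted p = 0.00069). At both ages every Titan mouse was below every control.

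The promoters of *H2-Aa* and *H2-Eb1* printed above both hold CTGATTGG in the same orientation, 51 and 62 bases before the start. The levels of the 2 genes differed between the lines in opposite directions, and the part of the promoters in this was not tested. Per kb of exon, the ratio of *H2-Eb1* to *H2-Aa* was 1.11 ± 0.443 in 11-week controls, 0.0318 ± 0.0211 in 11-week Titan mice, 1.02 ± 0.313 in 19–21-week controls and 0.044 ± 0.0104 in 19–21-week Titan mice. The lowest control had 0.395 and the highest Titan mouse 0.058. The ratio of *H2-Ab1* to *H2-Aa* was 0.834 ± 0.238 and 0.536 ± 0.0691 at 11 weeks and 0.784 ± 0.247 and 0.673 ± 0.0728 at 19–21 weeks, so both chains of I-A kept more similar proportions. The ratio of *Cd74* to *H2-Aa* was 5.66 ± 0.525 and 3.61 ± 0.468, then 5.64 ± 0.589 and 3.63 ± 0.612, with no overlap between the lines at either age.

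**Figure D4:**
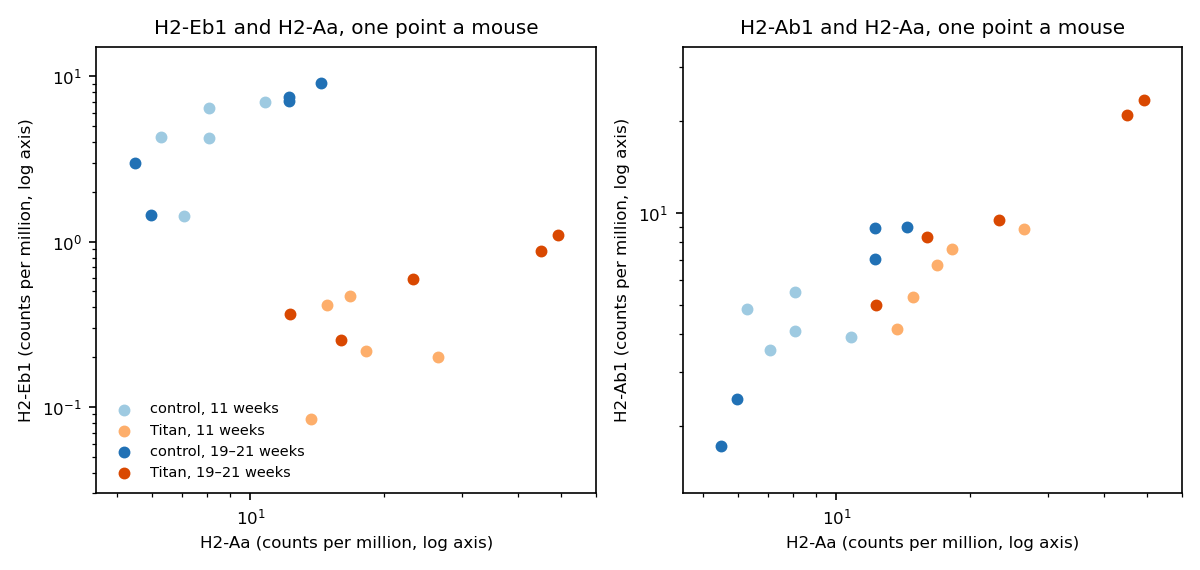
Level of *H2-Eb1* (left) and *H2-Ab1* (right) against *H2-Aa* in each of the 20 mice, in CPM with log axes on both sides. On the left the 10 Titan mice lie below the controls, and most of them farther to the right, with *H2-Eb1* from 0.084 to 1.09 beside 1.43 to 9.09 in controls, and on the right the mice of both lines lie near one band.

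Most neighbours did not pass the test. Of 8 other tested genes within 150 kb of *H2-Eb1*, 2 passed at each age, beside 14.9% and 9.12% of all genes tested. These were *H2-Aa* and *H2-Ea-ps*. The latter, the gene or pseudogene of the I-E α chain, is not a member and was chosen after its values were seen. It lies 25.3 kb from *H2-Eb1* and had 4.13, 5, 12.7, 4.82 and 3.24 CPM in 11-week controls and 0.138, 0.625, 0.292, 0.894 and 0.294 CPM in 11-week Titan mice (-3.84 ± 0.78 SE, adjusted p = 0.00187). At the later age it had 2.83, 2.26, 0, 5.14 and 11.6 CPM in controls and 1.09, 0.684, 0.243, 0.422 and 0.255 CPM in Titan mice (-3.03 ± 0.83 SE, adjusted p = 0.0243). The control with no read of *H2-Ea-ps* had 7.5 CPM of *H2-Eb1*. Without control replicate 5, whose level was the highest of its group, the difference at 19–21 weeks was -2.18 and the adjusted p 0.0982. The call at this age was also lost without Titan replicate 3, 4 or 5 (adjusted p = 0.0576, 0.0614 and 0.059), with only the groups compared (0.0797) and with a replicate block (0.0662). The class II genes are among the most variable of the genome between mouse strains. Reads that fail to map because of the sequence of an allele and less RNA cannot be told apart from counts.

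Of 14 other genes of class II antigen presentation, 8 were tested and the cathepsin gene *Ctsl* alone passed, downregulated at 11 weeks (-0.59 ± 0.11 SE, adjusted p = 0.000672) and at 19–21 weeks (-0.52 ± 0.11 SE, adjusted p = 0.0038). The share called was 12.5% at each age, beside 14.9% and 9.12% of all genes tested. At 11 weeks 2 of the 8 had a positive and 6 a negative log2 difference (median -0.11). At 19–21 weeks 6 were positive and 2 negative (median 0.38), and 4 had an unadjusted p under 0.05. At that age *H2-DMa* (0.83 ± 0.27 SE, adjusted p = 0.0557) and *H2-DMb1* (1.36 ± 0.46 SE, adjusted p = 0.0694) missed the threshold. Of 11 dendritic cell genes, 4 were tested, and *Zbtb46* (-0.37 ± 0.09 SE, adjusted p = 0.0067) and *Bst2* (-0.41 ± 0.11 SE, adjusted p = 0.0196) were downregulated at 11 weeks. These are the 2 with a negative log2 difference at that age, and 2 had a positive one, of up to 0.79. Of the 4, 3 had an unadjusted p under 0.05, so the list held both directions. In the older groups edgeR and DESeq2 called 0 of these 4, and 0 had an unadjusted p under 0.05.

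Markers of lipid-associated macrophages were scarce, with the exception of *Spp1*. *Trem2*, the lipid receptor that defines these cells, had 12 reads over the 20 mice, at most 3 in a mouse and none in 11 mice. It was the lowest of the 41 genes per length, at 0.00819 CPM per kb. *Gpnmb* had 0, 0, 1, 1 and 1 reads in 11-week controls and 4, 3, 2, 2 and 21 reads in 11-week Titan mice, and 0 to 3 and 0 to 4 reads in the 19–21-week groups. It did not pass the filter. *Spp1*, which encodes osteopontin and is also made by cholangiocytes, had 21 ± 6.49 CPM in 11-week controls, 28.3 ± 19.9 CPM in 11-week Titan mice, 16.5 ± 11.1 CPM in 19–21-week controls and 16.8 ± 7.04 CPM in 19–21-week Titan mice, without a difference past the threshold (adjusted p = 0.587 and 0.971). Its exons share 18.8% of their length with the annotated gene *Gm42793*.

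Among the 14 other genes of the lipid-associated macrophage signature, all of them tested, 2 were upregulated and 2 downregulated at 11 weeks, and 0 and 2 at 19–21 weeks. These shares are 28.6% and 14.3%, beside 14.9% and 9.12% of all genes tested. Most of the 14 had a positive log2 difference, 10 at 11 weeks (median 0.27) and 11 at 19–21 weeks (median 0.11). The lipase gene *Lpl* had the lowest log2 difference of the list and was downregulated at both ages (-2.85 ± 0.44 SE, adjusted p = 0.000154, and -2.16 ± 0.44 SE, adjusted p = 0.0035). The lipid droplet gene *Plin2* was upregulated at 11 weeks (0.65 ± 0.18 SE, adjusted p = 0.016), from 397 ± 69 to 623 ± 139 CPM, levels that lie far above those of the macrophage markers.

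Of the 4 inflammatory cytokines, 3 had only a few reads per mouse. *Ccl2*, the ligand of CCR2, had 1 to 8 reads per mouse, the T cell chemokine *Ccl5* 0 to 8 and *Tnf* 0 to 4, with means of *Ccl2* from 0.194 to 0.454 CPM and of *Tnf* from 0.0749 to 0.157 CPM. They were not tested. *Il1b* had 2.56 ± 1.05 and 2.12 ± 1.32 CPM at 11 weeks (-0.30 ± 0.38 SE, adjusted p = 0.666) and 1.6 ± 0.807 and 1.82 ± 0.671 CPM at 19–21 weeks (0.17 ± 0.42 SE, adjusted p = 0.841). Of 27 other cytokines and chemokines, 16 were tested, with 1 upregulated and 2 downregulated at 11 weeks and 1 downregulated at 19–21 weeks. These are 18.8% and 6.25% of the 16, beside 14.9% and 9.12% of all genes tested. The chemokine *Ccl9* was downregulated at both ages, from 84.7 ± 13.7 to 42.1 ± 6.46 CPM (adjusted p = 0.000404) and from 95.2 ± 27.6 to 35.5 ± 4.5 CPM (adjusted p = 3.55e-05). *Cxcl9*, induced by interferon, was upregulated at 11 weeks (1.09 ± 0.28 SE, adjusted p = 0.011) and the neutrophil chemokine *Cxcl1* was downregulated (-1.88 ± 0.43 SE, adjusted p = 0.00479).

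*Tlr4*, the receptor for lipopolysaccharide, had 3.35 ± 0.611 and 3.65 ± 0.959 CPM at 11 weeks (0.12 ± 0.23 SE, adjusted p = 0.8) and 4.14 ± 1.32 and 3.99 ± 0.704 CPM at 19–21 weeks (-0.06 ± 0.23 SE, adjusted p = 0.914). *Tlr2*, the receptor for bacterial lipoproteins, had group means of 1.93 to 2.54 CPM (adjusted p = 0.982 and 0.892). Of 26 other genes of Toll-like receptor signalling, 24 were tested, with 3 upregulated at 11 weeks and 1 at 19–21 weeks. These shares of 12.5% and 4.17% lie under the 14.9% and 9.12% of all genes tested. The adaptor gene *Myd88* was upregulated at both (0.32 ± 0.09 SE, adjusted p = 0.0186, and 0.30 ± 0.09 SE, adjusted p = 0.0414), and the flagellin receptor gene *Tlr5* at 11 weeks (0.81 ± 0.17 SE, adjusted p = 0.00197).

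**Figure D5:**
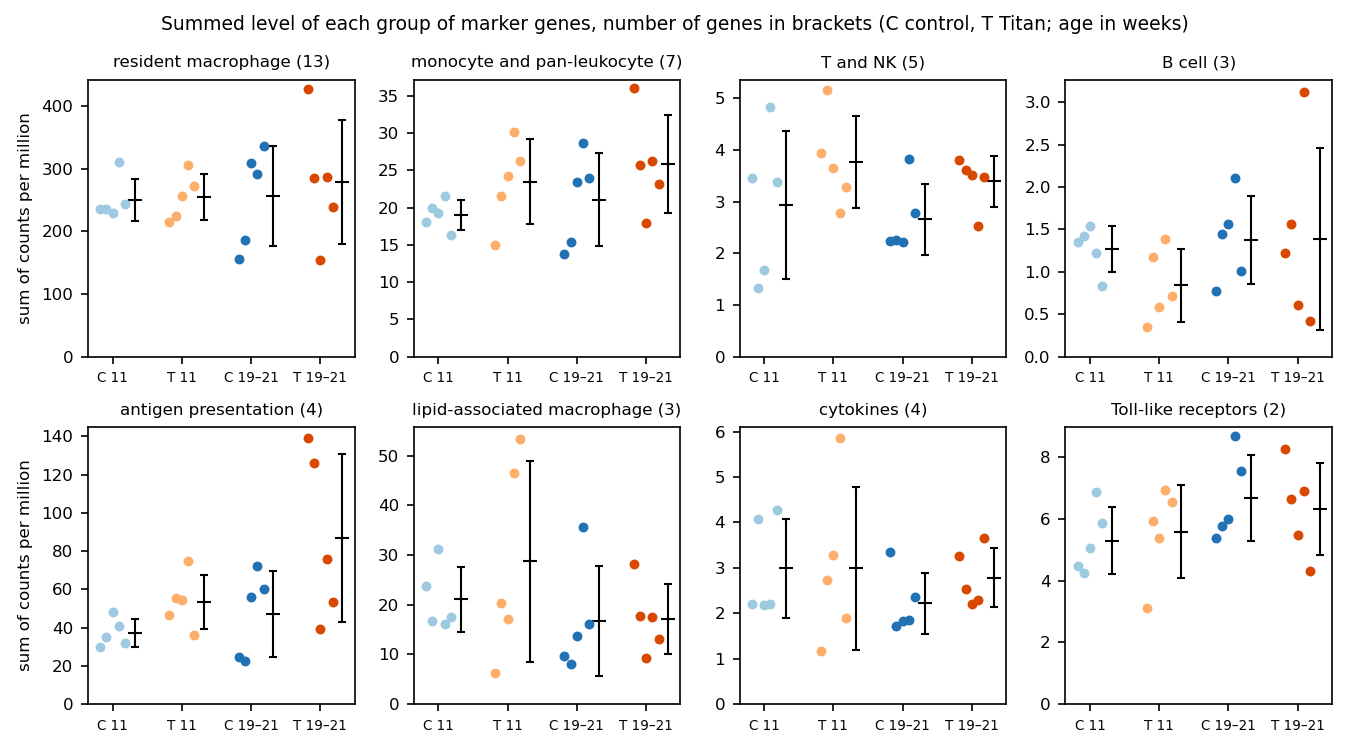
Summed level of each of the 8 groups of marker genes in each mouse (vertical axis, CPM), with 1 point a mouse in replicate order from left to right and the mean ± SD of the 5 mice in black. The number of genes is in brackets, and genes under the filter are included. The lines overlap in all 8 panels at both ages, and the antigen presentation sum reaches 139 in a 19–21-week Titan mouse.

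With age, the test called no member in either line. In Titan mice 19–21 against 11 weeks gave 0 of 28 called by edgeR and 0 by DESeq2, beside 1.25% of all genes tested, with 3 members at an unadjusted p under 0.05. These were *Ly6c2* (-0.93 ± 0.32 SE, adjusted p = 0.154), *H2-Aa* (0.70 ± 0.33 SE, adjusted p = 0.306) and *H2-Ab1* (1.05 ± 0.40 SE, adjusted p = 0.206). In controls edgeR and DESeq2 called 0 of 28, beside 0.0871% of all genes tested, with 0 at an unadjusted p under 0.05. The difference of the line effects between the ages gave 0 of 28 with both tools, beside 0.00726% of all genes tested. At an unadjusted p under 0.05 it held 2 members, *Ly6c2* (-1.21 ± 0.55 SE, adjusted p = 0.527) and *Cd3e* (-1.93 ± 0.92 SE, adjusted p = 0.557). For *Cd4*, called at 11 weeks only, the difference of the line effects was 0.61 ± 0.63 SE (adjusted p = 0.846).

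Lists of markers of the other liver cells were read in the same fit, in which 14.9% of all genes tested passed at 11 weeks and 9.12% at 19–21 weeks. Of 12 hepatocyte genes, 5 (41.7%) were downregulated at 11 weeks, led by *Ahsg* (-0.67 ± 0.14 SE, adjusted p = 0.00291). At that age 11 of the 12 had a negative log2 difference. At 19–21 weeks edgeR and DESeq2 called 0 hepatocyte genes, with 1 at an unadjusted p under 0.05. Of 12 genes of sinusoidal endothelium, which lines the vessels that Kupffer cells sit in, 2 (16.7%) were downregulated at each age, and 11 had a negative log2 difference. The sum of these endothelial genes was 624 ± 19.5 CPM in controls and 558 ± 38.2 CPM in Titan mice at 11 weeks, and 623 ± 20.2 and 562 ± 51.8 CPM at 19–21 weeks. At 11 weeks every Titan mouse (517 to 600 CPM) was under every control (608 to 651 CPM). At 19–21 weeks the lines overlapped (503 to 609 and 594 to 643 CPM). Among 12 stellate cell genes 1 was upregulated at 11 weeks (8.33%), and among 7 tested cholangiocyte genes *Pkhd1* was upregulated at both ages (14.3%). Of 9 tested erythroid genes, 1 was upregulated and 1 downregulated at each age (22.2%). Neutrophil and monocyte genes other than the members had 5 of 16 tested, with *Ly6c1* as the only one past the threshold (20%). At 11 weeks 23 other pan-myeloid genes gave *Fcgr4* (1.26 ± 0.42 SE, adjusted p = 0.0474), a share of 4.35%. Of 8 platelet genes 2 were tested, and edgeR and DESeq2 called 0 at either age, with 0 at an unadjusted p under 0.05. The part of other cell types in the differences of the members was not tested.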

How the data were processed

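Liver RNA of 20 mice was depleted of rRNA, made into directional libraries and sequenced. The authors aligned them with STAR (version 2.5.3a) to GRCm38 and deposited raw counts per gene, which leave out reads with several positions or genes. The sense strand, with 96.83% to 97.55% of the strand-assigned reads, was used, and 1562 Y-linked and 109 histone genes were left out, following the methods of the study. Groups follow line and age in the sample descriptions. Symbols and positions came from GENCODE M21 for 55480 gene IDs.

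edgeR 4.0.16 (R 4.3.3) was run with its default filter (13783 genes kept), TMM scaling and two-sided quasi-likelihood tests in one fit of the 4 groups, with Benjamini-Hochberg adjustment over all 13783 genes. The steps were checked on simulated data. SE is |log2 fold change|/√F. There were 5 comparisons: the lines at each age, the ages in each line, and the difference of both line effects. The 41 genes, the 16 other lists and the tests were chosen with earlier results of these data known. Members past the threshold were named with every mouse's value, and of the other lists at most 3 genes per comparison; results of some genes are not reported here. Alternatives were DESeq2 1.42.0, RLE size factors, counts over both strands, no filter, at least 10 counts in every mouse, a fit of just the compared groups, a replicate block, Y-linked and histone genes kept, and each mouse left out. Where nothing ties mice to separate litters, p values measure only the spread between these mice. Python 3.11.15 and matplotlib 3.10.9 made tables and figures.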

Additional observations from a re-analysis of the deposited data

Results flagged for a closer look

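Among 144 series of 5 mice (levels of the 28 tested genes and summed levels of the 8 groups), 11 had a mouse that stood apart from the other 4 by Dixon's test, where chance gives about 1 in 20. *Marco* had 1.19 CPM in replicate 4 of the 11-week-old Titan mice (others 0.146 to 0.378) and 4.76 CPM in replicate 1 of the 19–21-week-old Titan mice (others 0.506 to 1.09). Replicate 4 of the 11-week-old controls stood apart for *Cx3cr1* (2.13 CPM, others 0.337 to 0.75), for *Tlr2* (3.48 CPM, others 1.52 to 1.63) and for the sum of the resident macrophage genes (310 CPM, others 230 to 244). Replicate 4 of the 19–21-week-old controls stood apart for *Cd3e* (2.24 CPM, others 0 to 0.324), *Spp1* (35.6 CPM, others 8.03 to 15.7) and the sum of the lipid-associated macrophage genes, which is mostly *Spp1* (35.6 CPM, others 8.12 to 16). These 2 controls had 28.17% and 30.53% of reads outside annotated genes, and whether this bears on the levels was not tested. *Il1b* was high in replicate 1 of the 19–21-week-old controls (3 CPM, others 1.05 to 1.53). *Ly6c2* was low in replicate 1 of the 19–21-week-old Titan mice (0.272 CPM, others 0.68 to 0.782), and the sum of the T and NK genes was low in replicate 4 of that group (2.53 CPM, others 3.48 to 3.81).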

How the results depend on the processing

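At 11 weeks the count of members past the threshold was 5, and 7 with DESeq2, which added *Ccr2* and *Gpnmb*. It was 4 to 7 in every alternative except at least 10 counts in every mouse, which keeps only genes read well in all mice and gave 2 (*Ccr2* and *H2-Aa*). *Ly6c2*, *Cd3e*, *Cd4* and *H2-Eb1* had under 10 reads in some mice, so that fit did not test them. At 19–21 weeks the count of members past the threshold was 3, and 1 (*H2-Aa*) with at least 10 counts in every mouse. Each mouse left out in turn gave 4 to 6 at 11 weeks and 2 to 3 at 19–21 weeks. In the comparisons of the ages and of the line effects it was 0 in every alternative. Over all genes, DESeq2 called 411 genes between the ages in Titan mice (172 in edgeR), 50 in controls (12) and 85 for the difference of the line effects (1). The last gave 26 with no filter on low counts and 0 with at least 10 counts in every mouse, and the age comparison in controls gave 25 and 7.

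Levels gave no sign that the replicate numbers pair the mice. Deviations from group means of same-numbered mice correlated between -0.144 and 0.175 (median -0.001, 30 pairs), those of other mice between -0.178 and 0.19. Such a check cannot exclude shared litters, days or pools. With the replicate block 6 members passed at 11 weeks and 2 at 19–21 weeks, and over all genes the ages differed in 85 genes in Titan mice and in 8 in controls. The block took *Cd3e* at 19–21 weeks to an adjusted p of 0.0591 and *H2-Ea-ps* to 0.0662, *Ccr2* at 11 weeks past the threshold, and *Tlr2* at 11 weeks from -0.02 to 0.04.

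For single genes, 996 of 1058 alternatives kept direction and side of the threshold, 21 lost the call, 10 gained it and 31 changed sign. Of the sign changes, 29 came with a mouse left out. These were of genes without a call: *Adgre1* (-0.13 to 0.04), *Ptprc* (-0.05 to 0.17) and *Tlr2* (-0.18 to 0.3) at 11 weeks, and *Vsig4* (-0.26 to 0.22), *Adgre1* (-0.02 to 0.33), *Marco* (-1.86 to 0.06), *Lyz2* (-0.09 to 0.22), *C1qa* (-0.06 to 0.39), *Spp1* (-0.2 to 0.5), *Il1b* (-0.02 to 0.53), *Tlr2* (-0.28 to 0.1) and *Tlr4* (-0.23 to 0.05) at 19–21 weeks. *Tlr2* at 11 weeks also went to 0.00 with at least 10 counts. *Cd3e* at 19–21 weeks had adjusted p of 0.0548 on both strands and 0.101 with only the groups compared. The cause of these changes was not tested. The 13 genes under the filter, such as *Trem2* and *Tnf*, entered only the fits without it and DESeq2, where *Gpnmb* alone of them passed, at 11 weeks.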
